A study of Mus musculus with 94 samples.

Results

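AMPA and kainate receptors are the ion channels through which glutamate excites neurons. Each AMPA receptor is assembled from the subunits GluA1 to GluA4, which the genes Gria1 to Gria4 encode, and each kainate receptor from GluK1 to GluK5, encoded by Grik1 to Grik5. AMPA receptors carry most fast excitatory transmission in the brain, and the GluA2 subunit, once its transcript is edited, keeps the channel largely closed to calcium. Among the kainate subunits, GluK1 to GluK3 can form channels on their own, whereas GluK4 and GluK5 bind glutamate with high affinity and need a partner from the first group. Kainate receptors sit on both sides of the synapse, where they shape transmitter release and excitability.

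The levels of these 9 genes were followed on Affymetrix arrays of the mouse transcriptome, made from half-brains. Members were all probe sets whose platform annotation names 1 of the 9 genes and no other, and each probe set is reported on its own. There were 18 such probe sets among 45101 on the array, 10 for Gria genes and 8 for Grik genes. Values are the authors' normalised log2 intensities, so that a difference of 1 is a doubling. Levels of different probe sets are not set against each other, since brightness depends on the probe.

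Male mice of 11 weeks were either Mgmt-/-, lacking the DNA repair enzyme O6-methylguanine methyltransferase in the whole animal, or C57BL6 wild type (wt), and the knockout was on the C57BL6 background. Each mouse received 1 intraperitoneal injection of 20 mg/kg methylazoxymethanol acetate (MAM), an alkylating agent, or of the vehicle, dilute acetic acid in saline, and its brain was taken 6, 24, 48 or 168 hr later. The 16 groups of genotype, agent and time held 6 animals each, except wt MAM at 168 hr and wt vehicle at 48 hr with 5, and Mgmt-/- MAM at 168 hr with 5 once 1 array was left out. The comparisons ask whether MAM changed receptor subunit transcripts, whether it did so differently in mice that cannot remove O6-methylguanine, and whether the genotypes differed without MAM.

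Arrays are named by genotype, agent, time in hr and animal number, where MGMT stands for Mgmt-/- and VEH for vehicle. Array MGMT.MAM.168.343 carried liver RNA: its mean over 11 liver genes was 13.67, against 4.45 to 7.09 on the other arrays, and its mean over 6 neuronal genes was 4.95, against 11.63 to 11.92. It was left out, which left 93 arrays. On it, 14 of the 18 receptor probe sets read below every brain array, and the other 4 did not: 1453098_at (Gria2), 1439987_at (Grik1), 1427709_at (Grik3) and 1437681_at (Grik4). Animal numbers fell into 2 sets, with 45 and 48 arrays and 3 animals of each full group in each set, which were taken as the 2 laboratories of the study. Brain regions and cell types were mixed in every sample, so fewer cells of a type and less RNA per cell cannot be told apart. The probe set for Mgmt itself did not separate the genotypes (5.09, 5.70 and 6.45 as lowest, median and highest in Mgmt-/- brain, n = 47, against 5.49, 5.73 and 6.21 in wt brain, n = 46). Where it lies relative to the deleted part of the gene is not known from the sources, and it therefore checks no label.

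At each time, a probe set was called when limma's Benjamini-Hochberg adjusted p was under 0.05 and the fold change was above 1.3, a log2 difference of 0.379. Probe sets whose differences depended on the number set (joint interaction p of 0.15 or less) were set aside at that time. The study's methods set the threshold without saying whether the interactions were tested jointly or each on its own, and with each on its own 9 of the 18 calls at single times were kept. The joint test kept 12, 9, 10 and 10 of the 18 receptor probe sets at 6, 24, 48 and 168 hr. It kept 39.3%, 47.9%, 78.8% and 71% of all probe sets. One Gria3 probe set, 1420563_at, was set aside at all 4 times. A further fit of all 93 arrays without this filter gave the difference averaged over the 4 times for all 18 probe sets.

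In Mgmt-/- brain, MAM lowered 2 of the 12 receptor probe sets tested at 6 hr, 1 of Gria4 and 1 of Grik2, where 1.83% of all tested probe sets were called and 1.27% were called lower. None was called at 24, 48 or 168 hr, where 0.699%, 0.461% and 0.493% of all probe sets were called; at these times 3 of 9, 1 of 10 and 1 of 10 receptor probe sets had an unadjusted p under 0.05, against 11.2%, 8.77% and 9.84% of all tested probe sets. Averaged over the 4 times, 1 probe set of Gria3 and 1 of Gria4 were lower, 2 of 18, against 1.07% of all probe sets called and 0.905% called lower. In wt brain, limma called no receptor probe set at any time or on average, and 0% of all probe sets; at an unadjusted p under 0.05 there were 0, 1, 0 and 0 receptor probe sets at the 4 times (5.58%, 7.22%, 15.1% and 4.01% of all) and 4 of 18 on average (6.57% of all).

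Gria4 encodes GluA4, a subunit of fast AMPA receptors that is prominent in interneurons and in the cerebellum. At 6 hr, its probe set 1421351_at read 5.79, 6.31 and 6.49 (lowest, median, highest) in Mgmt-/- MAM brain, against 6.51, 7.03 and 7.20 in Mgmt-/- vehicle brain. In wt brain it read 6.83, 7.19 and 7.56 after MAM, against 6.80, 7.12 and 7.55 after vehicle. Every Mgmt-/- MAM array lay below every Mgmt-/- vehicle array, while the wt groups covered almost the same range. This complete separation at 6 hr was found for 2 receptor probe sets and for 1.87% of all probe sets. It was found for 0 at 24 and 168 hr (1.14% and 1.08% of all), and in wt brain for 0 at each of the 4 times (0.115%, 0.315%, 2.94% and 0.319% of all). The log2 difference in Mgmt-/- brain was −0.69 (SE 0.134, n = 6 each, limma adjusted p = 0.00328), with −0.92 in number set 1 and −0.46 in number set 2. In wt brain it was −0.02 (SE 0.134), and the difference between the genotypes, −0.67, did not pass (limma adjusted p = 0.148). The 6 hr call was lost without WT.VEH.6.105, when the filter set the probe set aside.

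The later times of this Gria4 probe set were outside the filter, and the number sets differed there. At 24 hr, it read 5.40, 6.07 and 6.51 in Mgmt-/- MAM brain, against 5.75, 6.54 and 6.99 in Mgmt-/- vehicle brain. At 48 hr, the values were 5.74, 5.94 and 6.80 in Mgmt-/- MAM brain, against 6.43, 6.64 and 7.21 in Mgmt-/- vehicle brain. The groups overlapped at both times. In number set 1 the MAM differences were −1.03 at 24 hr and −1.18 at 48 hr, whereas in number set 2 they were 0.16 and −0.08. At 168 hr the order of the sets was turned, with −0.09 in number set 1 and −0.54 in number set 2.

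Averaged over the 4 times, 1421351_at fell by 0.51 on the log2 scale with MAM in Mgmt-/- brain (95% interval −0.71 to −0.31, limma adjusted p = 9.60e-05). In wt brain the average was 0.02 (−0.18 to 0.22). The genotypes differed in this MAM effect by −0.53 (−0.81 to −0.25, adjusted p = 0.0198), 1 of 2 receptor probe sets called for this difference, both lower, against 0.745% of all probe sets called and 0.65% called lower. In number set 2 alone, the effect in Mgmt-/- brain was −0.23 and was not called (adjusted p = 0.0811).

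The other Gria4 probe sets differed from it. Probe set 1435722_at averaged 0.02 higher after MAM in Mgmt-/- brain, with an interval of −0.08 to 0.12. Probe set 1440891_at averaged −0.28 (−0.45 to −0.11, adjusted p = 0.0231), which is under the fold limit. At 6 hr, 1421351_at relative to 1435722_at changed by −0.87 with MAM in Mgmt-/- brain (exact permutation p = 0.01, two-sided, adjusted p = 0.09 over 36 such tests).

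**Figure D1:**
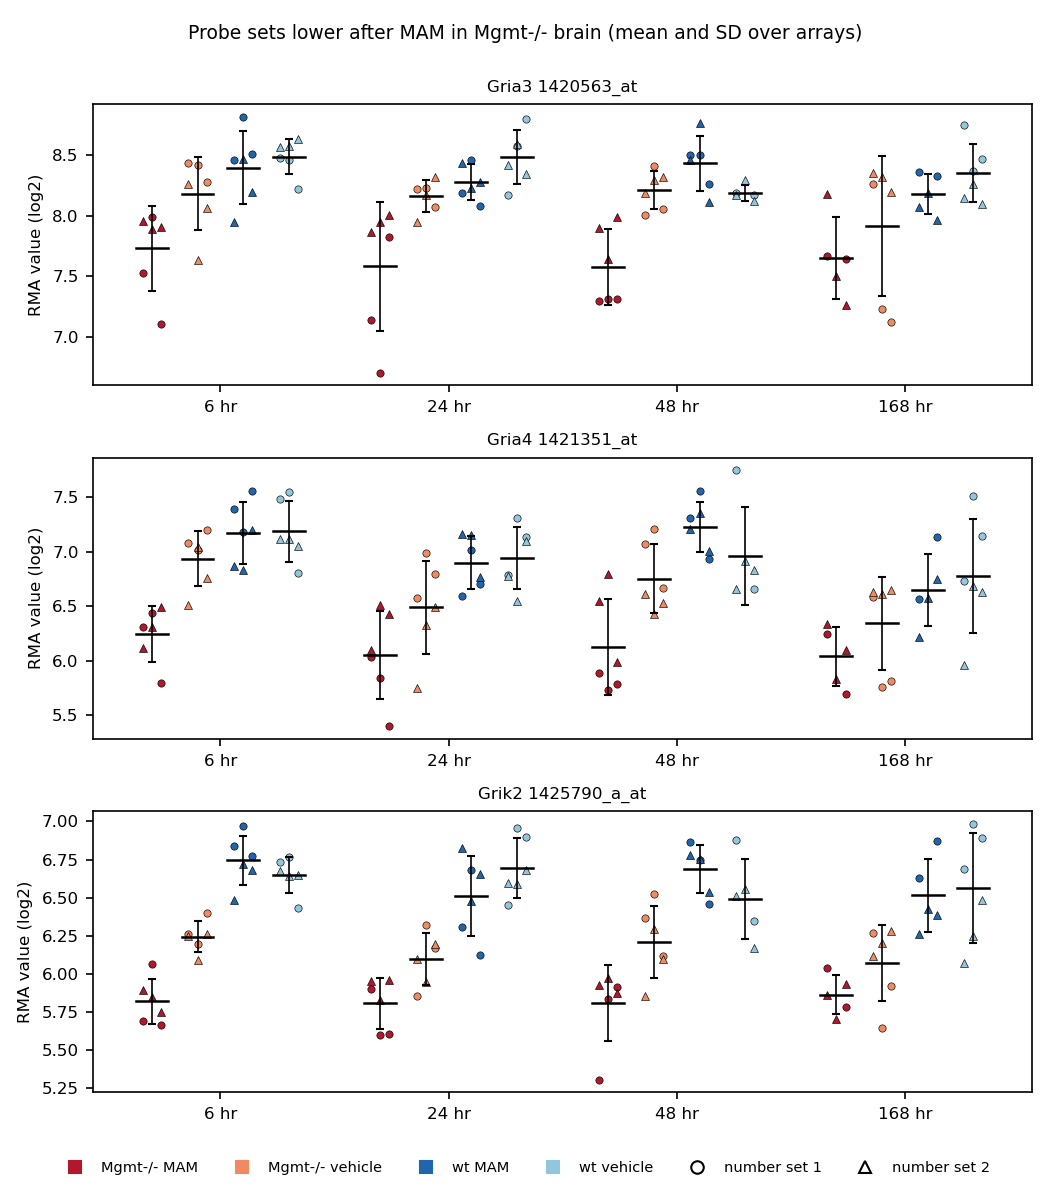
Log2 level of Gria3 1420563_at, Gria4 1421351_at and Grik2 1425790_a_at on each of the 93 arrays, by group and time, with group means and SD; circles are number set 1 and triangles number set 2. The Mgmt-/- MAM groups have the 4 lowest of the 16 means for each of the 3 probe sets, and at 6 hr the Mgmt-/- MAM arrays of Gria4 and Grik2 lie below all Mgmt-/- vehicle arrays.

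Gria3, on the X chromosome, encodes GluA3, which forms AMPA receptors mainly together with GluA2. At 48 hr, its probe set 1420563_at read 7.30, 7.48 and 7.99 in Mgmt-/- MAM brain, against 8.0, 8.24 and 8.41 in Mgmt-/- vehicle brain. At 6 hr it read 7.11, 7.90 and 7.99 in Mgmt-/- MAM brain, against 7.64, 8.27 and 8.43 in Mgmt-/- vehicle brain. The groups stood just apart at 48 hr, as did those of 1 other receptor probe set (0.732% of all probe sets), and overlapped at 6 hr.

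The MAM difference of Gria3 1420563_at lay below 0 in both number sets at 6, 24 and 48 hr, but was larger in number set 1 (−0.83, −0.94 and −0.85) than in number set 2 (−0.07, −0.21 and −0.42). At 168 hr, number set 1 gave 0.12 and number set 2 gave −0.64. Averaged over the 4 times, the level fell by 0.48 (interval −0.65 to −0.31, limma adjusted p = 1.34e-05) in Mgmt-/- brain and was −0.05 (−0.22 to 0.12) in wt brain. The genotypes differed by −0.43 (−0.67 to −0.19, adjusted p = 0.0289). In number set 2 alone the average effect in Mgmt-/- brain was −0.33 (adjusted p = 0.00146), under the fold limit.

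The other Gria3 probe set, 1434728_at, averaged 0.01 (−0.10 to 0.13) for MAM against vehicle in Mgmt-/- brain. Relative to it, 1420563_at changed by −0.66 at 48 hr (exact permutation p = 0.005, the smallest 400 permutations can give, adjusted p = 0.06). The values at 6, 24 and 168 hr were −0.53, −0.57 and −0.26, each with an unadjusted exact permutation p under 0.05 and an adjusted p from 0.126 to 0.131.

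Grik2 encodes GluK2, a kainate subunit that can form channels alone and is abundant in hippocampal mossy fibre circuits and in the cerebellum. At 6 hr, its probe set 1425790_a_at read 5.67, 5.80 and 6.06 in Mgmt-/- MAM brain, against 6.09, 6.26 and 6.40 in Mgmt-/- vehicle brain. In wt brain it read 6.49, 6.75 and 6.97 after MAM, against 6.43, 6.66 and 6.76 after vehicle. The Mgmt-/- groups did not overlap each other, the Mgmt-/- MAM arrays also lay below every wt array of that time, and the wt groups overlapped.

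The 6 hr difference of Grik2 1425790_a_at was −0.42 in Mgmt-/- brain (SE 0.077, n = 6 each, limma adjusted p = 0.00191), with −0.48 in number set 1 and −0.37 in number set 2. In wt brain it was 0.10. The genotypes differed by −0.52 (SE 0.108, adjusted p = 0.04998), the only 1 of 12 receptor probe sets called for this difference at 6 hr, against 0.13% of all probe sets called and 0.124% called lower. None was called at 24, 48 or 168 hr (0.0509%, 0.9% and 0.0718% of all probe sets). An unadjusted p under 0.05 was found there for 1 of 9, 1 of 10 and 0 of 10 receptor probe sets, against 5.95%, 16.7% and 7.1% of all.

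The call of a genotype difference lay at the threshold. It was lost or could not be made when any of 21 of the 24 arrays of 6 hr was left out, with adjusted p from 0.0164 to 0.0905 over all of them, and it held without WT.MAM.6.725 or WT.VEH.6.103 or WT.VEH.6.701. Without the filter the adjusted p was 0.116. The MAM call itself was lost without MGMT.MAM.6.327, when the filter set the probe set aside. Averaged over the 4 times, the MAM effect was −0.33 (−0.45 to −0.21, adjusted p = 3.48e-05) in Mgmt-/- brain and 0.02 (−0.11 to 0.14) in wt brain, and the difference between them −0.35 (adjusted p = 0.0104), all under the fold limit.

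The second Grik2 probe set, 1457683_at, averaged 0.03 (−0.08 to 0.15) in Mgmt-/- brain. Relative to it, 1425790_a_at changed by −0.65 at 6 hr and by −0.39 at 48 hr (exact permutation p = 0.005, adjusted p = 0.06 for each). Over all 36 tests of this kind on the genes with more than 1 probe set, 12 had an exact permutation p under 0.05 and 0 had an adjusted p under 0.05.

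Gria2, the gene of the calcium-limiting subunit GluA2, had 1 probe set past the p threshold alone. At 6 hr, 1421970_a_at read 10.47, 10.89 and 11.20 in Mgmt-/- MAM brain, against 10.96, 11.19 and 11.27 in Mgmt-/- vehicle brain. The groups overlapped, and the difference was −0.33 (adjusted p = 0.0403). At 48 hr the values were 10.59, 10.86 and 11.004 in Mgmt-/- MAM brain, against 11.06, 11.08 and 11.22 in Mgmt-/- vehicle brain, with no overlap, but the probe set was set aside by the filter. The average over the 4 times was −0.26 (adjusted p = 0.000321) in Mgmt-/- brain and 0.03 in wt brain, and the genotypes differed by −0.28 (adjusted p = 0.0221).

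The remaining 13 probe sets averaged between −0.08 and 0.12 for MAM against vehicle in Mgmt-/- brain. They include both probe sets of Gria1, whose subunit GluA1 is moved to synapses in plasticity, at 0.07 and −0.03. Grik4 and Grik5, the high-affinity kainate subunits, stood at 0.04 and 0.02. Of the 18 probe sets, 9 lay below 0, against 43.9% of all probe sets, and the median was −0.00, against 0.01 for all. In wt brain the 18 averages lay between −0.15 and 0.14, with 8 below 0, against 47.3% of all.

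**Figure D2:**
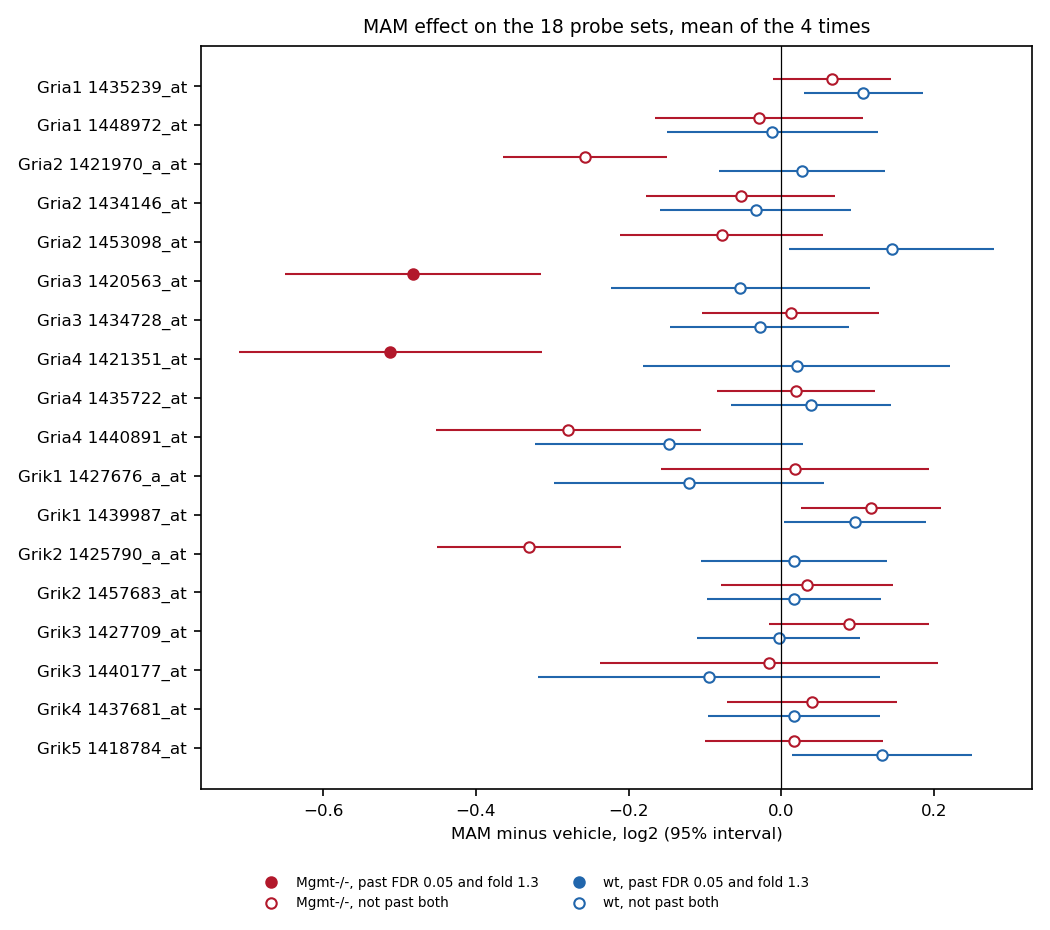
Log2 difference of MAM minus vehicle, averaged over the 4 times, for the 18 probe sets in Mgmt-/- and wt brain, with 95% intervals; filled points passed both thresholds. Only Gria3 1420563_at (−0.48) and Gria4 1421351_at (−0.51) are filled, both in Mgmt-/- brain.

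Measures of RNA quality and of other tissues also differed between Mgmt-/- MAM and Mgmt-/- vehicle brain, and not at 6 hr alone. The RNA 3'/5' index, the mean log2 signal of the 3' minus the 5' control probe sets of Gapdh and beta-actin, averaged 0.633, 0.626, 0.540 and 0.520 in Mgmt-/- MAM brain at 6, 24, 48 and 168 hr, against 0.434, 0.481, 0.423 and 0.552 in Mgmt-/- vehicle brain. In wt brain it was 0.378, 0.390, 0.331 and 0.442 after MAM, against 0.313, 0.327, 0.330 and 0.372 after vehicle. At 6 hr the Mgmt-/- MAM arrays (0.570 to 0.750) and the Mgmt-/- vehicle arrays (0.417 to 0.460) did not overlap on this index.

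Gria3 1420563_at, Gria4 1421351_at and Grik2 1425790_a_at ran against the index over the 93 arrays (r = −0.762, −0.705 and −0.766), as did 7.06% of all probe sets at r below −0.5. Within groups and number sets, r was −0.351, −0.14 and −0.141. The arrays of a group share genotype, agent and time, so that these values describe the arrays and are not tests. With the index as a covariate, no receptor probe set was called for MAM against vehicle or for the difference between genotypes. The average effects in Mgmt-/- brain were then −0.24 for Gria3 1420563_at (adjusted p = 0.129), −0.35 for Gria4 1421351_at (adjusted p = 0.0759) and −0.23 for Grik2 1425790_a_at (adjusted p = 0.0434, under the fold limit). 

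**Figure D3:**
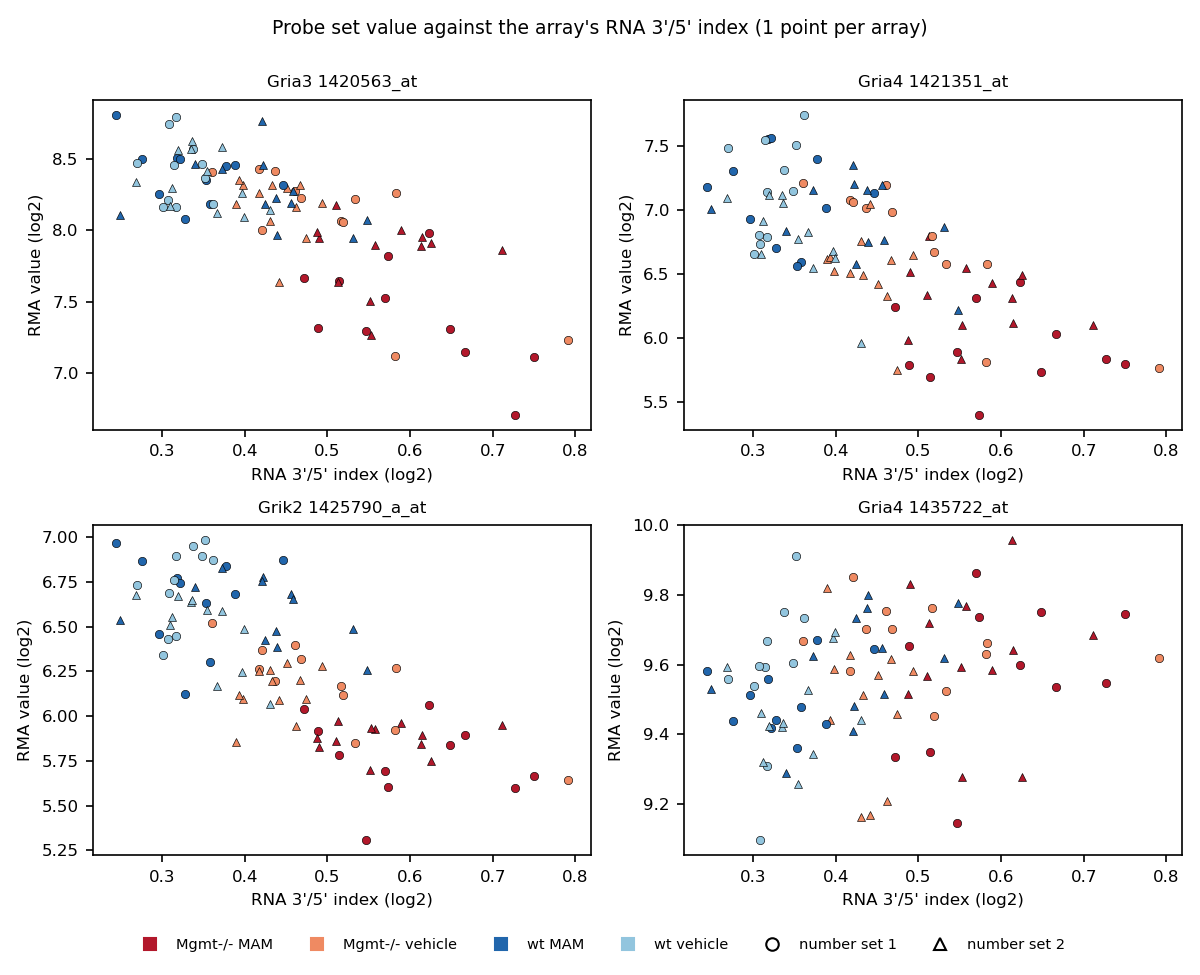
Log2 level of Gria3 1420563_at, Gria4 1421351_at, Grik2 1425790_a_at and Gria4 1435722_at against the RNA 3'/5' index on each of the 93 arrays, by genotype and agent. The first 3 are lower on arrays of higher index (r = −0.762, −0.705 and −0.766), most of them Mgmt-/- MAM arrays, and the fourth is not (r = 0.237).

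Of the marker lists, the mean over 6 neuronal genes moved by −0.05 to 0.00 with MAM in Mgmt-/- brain. The filter kept only 2, 1, 5 and 6 of these genes at 6, 24, 48 and 168 hr, and 0 of those tested were called. The mean over 4 hypothalamic neuropeptide genes at 6 hr ranged from 5.82 to 8.21 in Mgmt-/- MAM brain, against 6.87 to 8.76 in Mgmt-/- vehicle brain, a difference of −0.56, with 0 of 4 tested genes called. The mean over 3 hippocampal genes ranged from 4.63 to 5.22, against 4.90 to 5.61, and the 1 gene tested was called lower. The mean over 11 liver genes ranged from 4.99 to 6.43 in Mgmt-/- MAM brain, against 4.45 to 5.36 in Mgmt-/- vehicle brain, with 2 of 7 tested genes higher. The liver difference was 0.72 at 6 hr and 0.60 at 24 hr, where 0 of 10 tested genes were called. Later, 1 of 4 tested endothelial genes was called higher at 48 hr and 1 of 2 tested astrocyte genes lower at 168 hr. The microglial list differed by 0.15, −0.11, −0.20 and −0.30 at the 4 times, with 0 genes called. The hypothalamic list differed by −0.28 at 168 hr, where the filter kept 0 of its genes. The part of these lists in the receptor results was not tested.

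Between the genotypes, most of the receptor probe sets called were lower in Mgmt-/- brain, and Grik5 after vehicle was higher. After vehicle, 2, 2, 2 and 0 receptor probe sets were called at 6, 24, 48 and 168 hr, against 3.57%, 4.21%, 3.01% and 0.0874% of all probe sets. After MAM, 2, 1, 5 and 1 were called, all lower in Mgmt-/- brain, against 7.29%, 5.28%, 9.33% and 1.52% of all probe sets, of which those called lower were 4.71%, 3.91%, 6.83% and 0.99%. On average over the 4 times, 5 of 18 were called after vehicle (4.11% of all) and 6 of 18 after MAM, all lower (5.94% of all, and 5.05% lower). Groups of arrays that did not overlap between the genotypes were found for 3, 5, 3 and 1 receptor probe sets after vehicle (3.74%, 6.34%, 3.27% and 1.17% of all probe sets) and for 3, 4, 6 and 1 after MAM (5.88%, 4.8%, 10.7% and 4.43%). These comparisons use the same arrays as those of MAM against vehicle.

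Grik2 1425790_a_at was called at 6 and 24 hr after vehicle and at 6, 24 and 48 hr after MAM. At 48 hr after vehicle it was tested and not called, and at 168 hr it was set aside. After vehicle at 24 hr, it read 5.85, 6.13 and 6.32 in Mgmt-/- brain, against 6.45, 6.64 and 6.95 in wt brain, with no overlap and a difference of −0.60 (SE 0.111, adjusted p = 0.00111). After MAM at 24 hr, it read 5.60, 5.86 and 5.96 in Mgmt-/- brain, against 6.12, 6.56 and 6.83 in wt brain, again apart, with a difference of −0.70 (adjusted p = 0.000109).

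At 6 hr, the Grik2 difference was −0.41 after vehicle (adjusted p = 0.00115) and −0.93 after MAM (adjusted p = 5.74e-09), and at 48 hr after MAM −0.88 (adjusted p = 1.52e-05). After MAM at 168 hr, where the probe set was set aside by the filter, the values were 5.70, 5.78, 5.86, 5.93 and 6.04 in Mgmt-/- brain, against 6.26, 6.39, 6.42, 6.63 and 6.87 in wt brain. The genotypes thus stood apart at all 4 times after MAM. All 8 Mgmt-/- group means were below all 8 wt group means, and the averages over the 4 times were −0.44 after vehicle (adjusted p = 7.14e-09) and −0.79 after MAM (adjusted p = 5.12e-19).

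Its second probe set, 1457683_at, averaged −0.14 after vehicle (adjusted p = 0.0455) and −0.13 after MAM (adjusted p = 0.0700), under the fold limit. Leaving out MGMT.MAM.6.327, WT.MAM.24.133, WT.VEH.24.107, MGMT.VEH.24.307 or WT.VEH.48.115 put 1425790_a_at outside the filter at that time.

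Grik5 encodes the widely expressed high-affinity subunit GluK5. At 6 hr after vehicle, 1418784_at read 8.84, 8.91 and 9.18 in Mgmt-/- brain, against 8.41, 8.51 and 8.73 in wt brain. After vehicle at 48 hr it read 8.71, 8.92 and 9.06 in Mgmt-/- brain, against 8.27, 8.36, 8.39, 8.47 and 8.55 in wt brain. The genotypes did not overlap at either time. The 6 hr difference was 0.43 (SE 0.070, adjusted p = 0.00026), and the filter set the probe set aside at 48 and 168 hr. The averages over the 4 times were 0.41 after vehicle (0.29 to 0.52, adjusted p = 3.62e-08) and 0.29 after MAM (adjusted p = 4.43e-05), the second under the fold limit. The 6 hr call was lost without MGMT.VEH.6.305.

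Grik3, the gene of GluK3, a low-affinity subunit, differed at its probe set 1440177_at. At 24 hr after vehicle it read 6.93, 7.68 and 7.86 in Mgmt-/- brain, against 8.10, 8.31 and 8.65 in wt brain. After MAM at 48 hr it read 6.90, 7.47 and 8.03 in Mgmt-/- brain, against 7.92, 8.14 and 8.50 in wt brain. The genotypes stood apart after vehicle and overlapped slightly after MAM.

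The differences of Grik3 1440177_at were −0.74 at 24 hr after vehicle (SE 0.202, adjusted p = 0.0242) and −0.71 at 48 hr after MAM (adjusted p = 0.00283). The 24 hr call rested on single arrays: it was lost without any of 7, which were WT.VEH.24.107, WT.VEH.24.111 and WT.VEH.24.707, MGMT.VEH.24.907 and MGMT.VEH.24.909, WT.MAM.24.131 and MGMT.MAM.24.955. On average the probe set was −0.52 after vehicle (adjusted p = 0.000122) and −0.45 after MAM (adjusted p = 0.000938). In number set 1 alone the average after MAM was −0.11 (adjusted p = 0.656). The other Grik3 probe set, 1427709_at, averaged 0.06 and 0.15.

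Grik1 encodes GluK1, a subunit known from interneurons and sensory neurons. At 48 hr after MAM, 1427676_a_at read 4.88, 5.19 and 5.65 in Mgmt-/- brain, against 5.53, 5.84 and 6.16 in wt brain, with a small overlap. The difference was −0.60 (adjusted p = 0.00235), with −0.30 in number set 1 and −0.90 in number set 2. It was lost without WT.VEH.48.113 or WT.VEH.48.115, MGMT.VEH.48.317 or MGMT.MAM.48.337 or MGMT.MAM.48.965, when the filter set the probe set aside. The averages were −0.45 after vehicle (adjusted p = 3.27e-05) and −0.31 after MAM (adjusted p = 0.00354, under the fold limit). The other Grik1 probe set, 1439987_at, averaged 0.11 and 0.13, at levels between 3.66 and 4.72 that include the 4.12 of the liver RNA array.

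Among the AMPA subunits, Gria4 was lower in Mgmt-/- brain at 2 of its 3 probe sets. At 48 hr after MAM, 1440891_at read 7.54, 8.29 and 8.48 in Mgmt-/- brain, against 8.69, 8.86 and 9.15 in wt brain. At 48 hr after vehicle, it read 8.18, 8.36 and 8.70 in Mgmt-/- brain, against 8.77, 8.87, 8.99, 9.05 and 9.17 in wt brain. Neither pair of groups overlapped, and the differences were −0.69 after MAM (adjusted p = 0.000381) and −0.56 after vehicle (adjusted p = 0.0128). Averaged over the 4 times they were −0.64 (adjusted p = 4.64e-09) and −0.51 (adjusted p = 2.13e-06). The call after vehicle at 48 hr was not made in number set 1 alone (−0.48, adjusted p = 0.436).

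Gria4 1421351_at differed by −0.93 at 6 hr after MAM (adjusted p = 2.28e-05), a call lost without WT.VEH.6.105, and by −0.87 on average after MAM (adjusted p = 1.69e-11). After vehicle its average was −0.34 (adjusted p = 0.00583), under the fold limit. The third Gria4 probe set, 1435722_at, averaged 0.03 after MAM and 0.05 after vehicle. Gria3 1420563_at averaged −0.69 after MAM (adjusted p = 2.05e-10) and −0.26 after vehicle (adjusted p = 0.0139, under the fold limit), beside −0.16 and −0.21 at 1434728_at.

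Gria2 was called at 2 probe sets, neither of them at both agents. At 168 hr after MAM, 1453098_at read 6.59, 6.89, 6.95, 7.01 and 7.30 in Mgmt-/- brain, against 6.78, 7.40, 7.80, 7.93 and 7.93 in wt brain. The 48 hr values after MAM were 6.45, 6.89 and 7.04 in Mgmt-/- brain, against 7.30, 7.33 and 7.69 in wt brain. The genotypes overlapped at 168 hr and not at 48 hr, and the differences were −0.62 (adjusted p = 0.0178) and −0.56 (adjusted p = 0.00119). The average after MAM was −0.38 (adjusted p = 2.61e-06), just past the fold limit. Over the 93 arrays 1453098_at read 6.16 to 7.93, against 6.44 on the liver RNA array, so not every brain array read above that array. The 168 hr call was lost without WT.MAM.168.143 or WT.MAM.168.745 or MGMT.VEH.168.319. The 48 hr call was lost without WT.VEH.48.115, MGMT.VEH.48.315, MGMT.MAM.48.337 or WT.MAM.48.741.

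At 48 hr after vehicle, Gria2 1434146_at read 9.87, 10.49 and 10.86 in Mgmt-/- brain, against 10.60, 10.87, 10.94, 10.94 and 10.98 in wt brain. The groups overlapped, the difference was −0.44 (adjusted p = 0.0434), and the call was lost without any of 12 of the 23 arrays, with adjusted p up to 0.107. These were WT.VEH.48.115, WT.VEH.48.713, WT.VEH.48.715 and WT.VEH.48.717, WT.MAM.48.141 and WT.MAM.48.737, MGMT.VEH.48.313, MGMT.VEH.48.315, MGMT.VEH.48.317, MGMT.VEH.48.913 and MGMT.VEH.48.915, and MGMT.MAM.48.965. All 8 Mgmt-/- group means of 1434146_at nevertheless lay below all 8 wt group means, from 10.39 to 10.87 over the 16 groups. The same order of means was found for Grik3 1440177_at and, as given above, for Grik2 1425790_a_at. Probe set 1421970_a_at of Gria2 ran the other way after vehicle, with an average of 0.24 (adjusted p = 0.000303), and was −0.05 after MAM. Both Gria1 probe sets averaged higher in Mgmt-/- brain, by 0.17 and 0.22 after vehicle and by 0.13 and 0.21 after MAM, all under the fold limit, and Grik4 averaged 0.02 and 0.05.

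**Figure D4:**
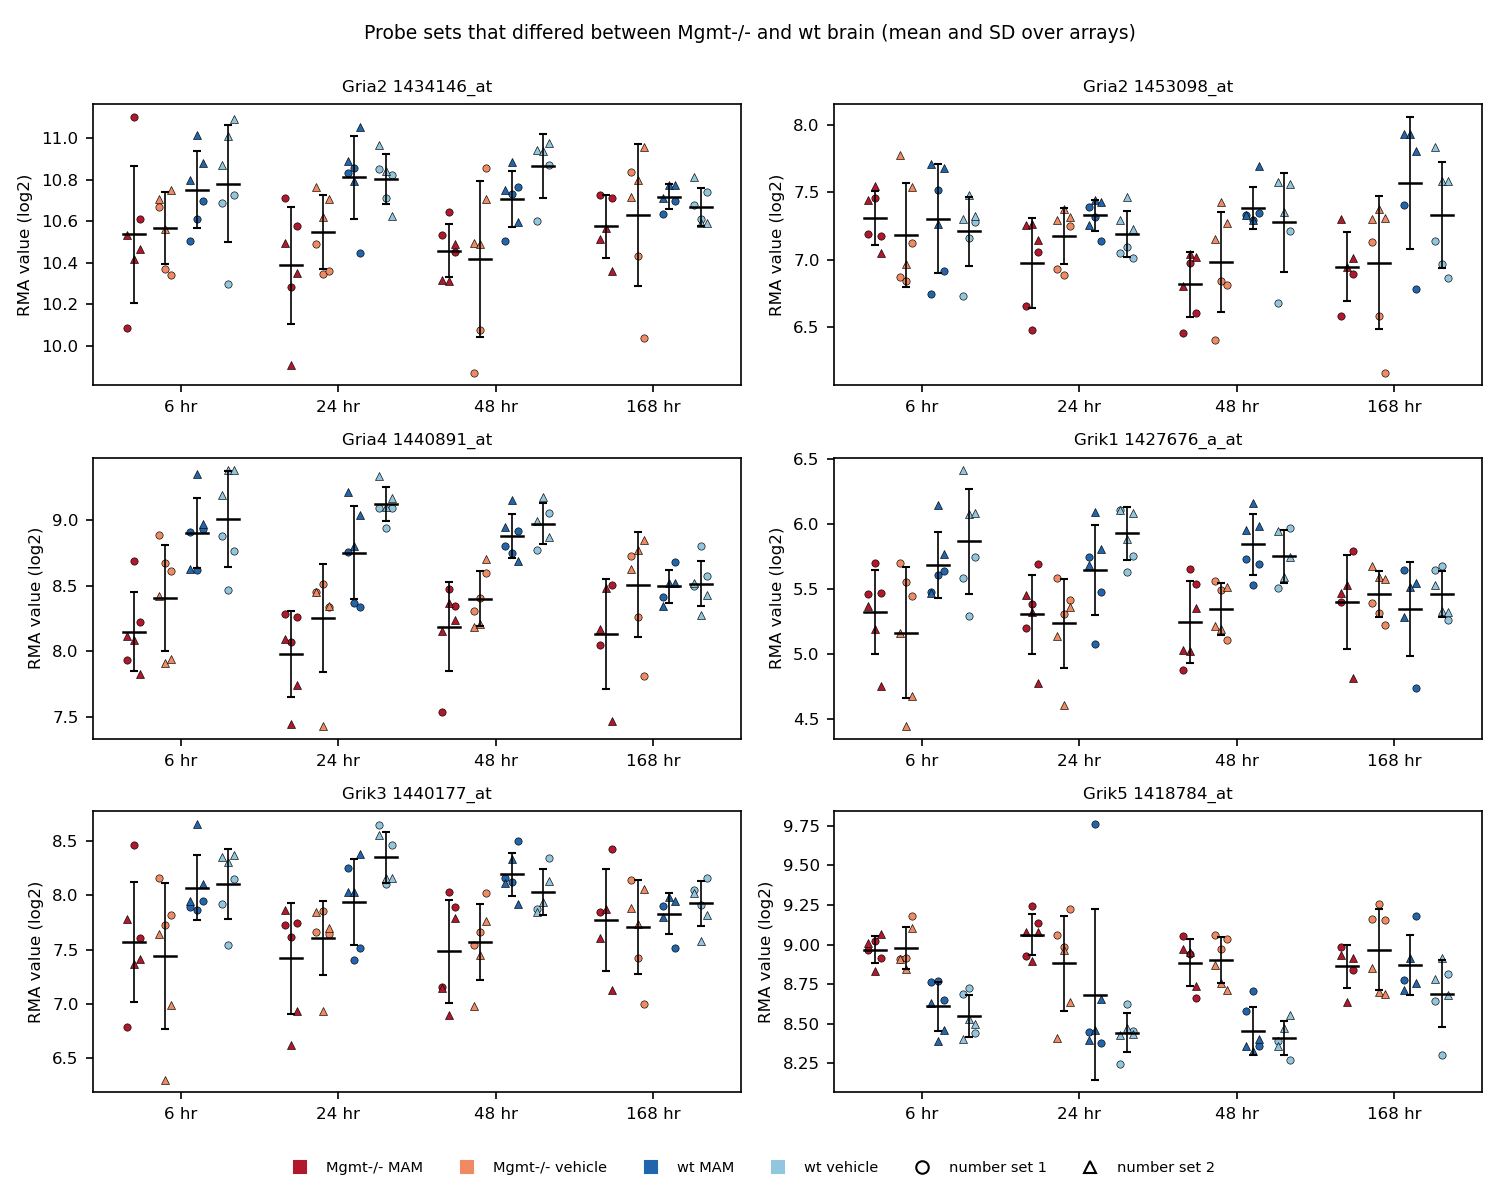
Log2 level of 6 probe sets on each of the 93 arrays, by group and time, with group means and SD; circles are number set 1 and triangles number set 2. The means of Grik5 1418784_at are higher in Mgmt-/- brain at 6 to 48 hr, and those of the Grik3, Grik1 and Gria4 probe sets are lower at these times. The arrays of the Gria2 probe sets overlap between most groups, though all 8 Mgmt-/- means of 1434146_at lie below all 8 wt means.

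The RNA index also differed between the genotypes, by 0.120, 0.154, 0.093 and 0.179 (Mgmt-/- minus wt) after vehicle and by 0.255, 0.236, 0.209 and 0.078 after MAM at the 4 times. With it as a covariate, the averages after MAM that stayed called were −0.57 for Gria4 1421351_at, −0.61 for Grik2 1425790_a_at, −0.57 for Grik3 1440177_at and −0.69 for Gria4 1440891_at, and after vehicle −0.42 for Grik1 1427676_a_at, −0.61 for Grik3 1440177_at and −0.54 for Gria4 1440891_at. Grik5 (0.31) and Grik2 1425790_a_at (−0.32) after vehicle, and Gria2 1453098_at (−0.30) after MAM, then fell under the fold limit, and Gria3 1420563_at after MAM was −0.24 (adjusted p = 0.131). Gria1 1448972_at was called higher, by 0.44 after vehicle and 0.52 after MAM.

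Marker lists also differed between the genotypes. After MAM at 6 hr, the mean over the hypothalamic genes ranged from 5.82 to 8.21 in Mgmt-/- brain, against 7.92 to 8.57 in wt brain, a difference of −0.75 with 1 of 4 tested genes called lower. The liver list ranged from 4.99 to 6.43 in Mgmt-/- brain, against 4.59 to 5.85 in wt brain, a difference of 0.65 with 2 of 7 tested genes higher. After MAM at 48 hr, where 5 receptor probe sets were called, the mean over 5 microglial genes ranged from 7.29 to 8.0 in Mgmt-/- brain, against 7.94 to 8.20 in wt brain (−0.28, 2 of 5 tested genes lower). At that time 1 gene each of the oligodendrocyte, cerebellar, hippocampal and hypothalamic lists was also called lower, 1 liver gene higher, and 1 endothelial gene each way, while 0 of 5 tested neuronal genes were called. After vehicle at 6 hr, the oligodendrocyte list ranged from 11.42 to 11.81 in Mgmt-/- brain, against 11.84 to 12.06 in wt brain (−0.33), and the microglial list from 6.59 to 8.10 in Mgmt-/- brain, against 7.80 to 8.14 in wt brain (−0.44), with 0 genes called, though the filter kept 1 gene of each list. After vehicle at 24 hr, the cerebellar list ranged from 10.17 to 11.005 in Mgmt-/- brain, against 10.93 to 11.36 in wt brain (−0.40, 1 of 4 tested genes lower). Other lists were higher in Mgmt-/- brain after vehicle. The striatal list was higher by 0.22 at 6 hr and by 0.27 at 48 hr, with 1 of 3 and 1 of 2 tested genes called higher. At 48 hr it ranged from 8.38 to 8.62 in Mgmt-/- brain, against 8.15 to 8.35 in wt brain. The olfactory bulb list was higher by 0.30, 0.13, 0.22 and 0.44 at the 4 times, with 0 genes called. What part any marker list has in the receptor results was not tested.

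**Figure D5:**
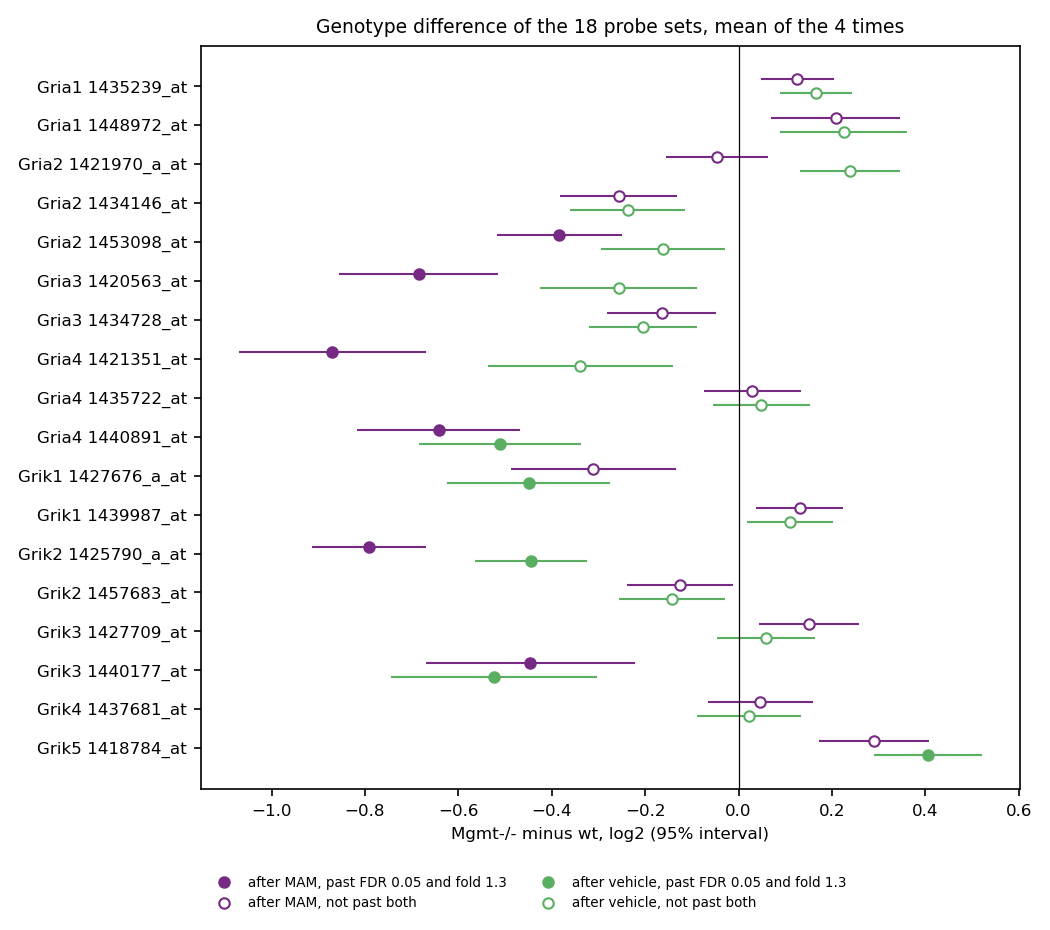
Log2 difference of Mgmt-/- minus wt after MAM and after vehicle, averaged over the 4 times, for the 18 probe sets, with 95% intervals; filled points passed both thresholds. Of those called, only Grik5 1418784_at after vehicle (0.41) lies above 0.

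Differences among the 4 times were not called for any receptor probe set in any of the 4 combinations of genotype and agent, against 0.288%, 0%, 1.08% and 0.102% of all probe sets in Mgmt-/- MAM, Mgmt-/- vehicle, wt MAM and wt vehicle brain (limma F test). At an unadjusted p under 0.05 there were 1, 1, 3 and 2 of 18, against 6.11%, 5.57%, 12.6% and 8.45% of all probe sets. In Mgmt-/- MAM brain the lowest p was that of Gria2 1453098_at (0.0023, adjusted p = 0.217), whose means were 7.31, 6.97, 6.82 and 6.95 at 6, 24, 48 and 168 hr. The 4 lowest of the 16 group means were the 4 Mgmt-/- MAM groups for Gria3 1420563_at, Gria4 1421351_at, Gria4 1440891_at and Grik2 1425790_a_at.

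After the mean of each time and number set was removed, the probe sets of other genes most like Gria4 1421351_at over the 93 arrays belonged to Ahcyl1 (r = 0.886), Tbc1d9 (0.883), Mapk9 (0.876), Prkacb (0.873) and Prkar1a (0.866). Those most like Grik2 1425790_a_at belonged to Pafah1b2 (0.927), Camk2d (0.926), Rabgap1 (0.925), Tgoln1 (0.925) and Ahcyl1 (0.923). The 2 receptor probe sets followed each other with r = 0.863. In contrast, r on the same values was 0.00919 between the Gria4 probe sets 1421351_at and 1435722_at, 0.369 between the Grik2 probe sets and 0.469 between the Gria3 probe sets. These arrays share group and RNA index, and the values are descriptions.

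Of 42 genes that act with the receptors, 40 were measured by 87 probe sets, of which the filter kept 29, 40, 52 and 47 at 6, 24, 48 and 168 hr. For MAM in Mgmt-/- brain, 3, 1, 1 and 0 of the probe sets kept were called, at 6 hr of 3 different genes, against 1.83%, 0.699%, 0.461% and 0.493% of all probe sets. On average 4 of 87 were called, all lower, against 1.07% of all. In wt brain limma called 0 at each time and on average. The values that follow for each gene are those of a single called probe set. Any other probe sets of these genes were set aside or not called, so a change of the whole gene is not shown. All values for these partner genes are from fits without the RNA index, and their calls with it as a covariate were not examined. The called probe set of Nedd4, a ubiquitin ligase that targets AMPA receptors for removal, fell by 0.99, 1.07 and 1.14 at 6, 24 and 48 hr. Lrrtm1, a postsynaptic adhesion protein that holds AMPA receptors, fell by 0.57 at 6 hr, and Shisa7, which encodes a transmembrane protein first described as an AMPA receptor partner, rose by 0.46. The average changes were −0.96 for Nedd4, −0.51 for Abhd6, whose product limits AMPA receptor delivery, −0.49 for Nsf, which binds GluA2, and −0.40 for Lrrtm1. The genotypes differed in the average MAM effect for these same 4 probe sets of 87, by −0.85, −0.45, −0.44 and −0.41. Of all probe sets, 0.745% were called for this difference and 0.65% were called lower. At a single time it was called for Nedd4 alone, at 48 hr (−1.48), 1 of 52 tested, against 0.9% of all.

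Between the genotypes, 9 of the 87 probe sets, of 7 genes, were called on average after MAM, all lower in Mgmt-/- brain, against 5.94% of all probe sets. After vehicle 6 of 87, of 5 genes, were called, 5 lower and 1 higher, against 4.11% of all. At 6, 24, 48 and 168 hr after MAM, 5 of 29, 6 of 40, 7 of 52 and 1 of 47 tested were called. The shares of all probe sets were 7.29%, 5.28%, 9.33% and 1.52%. After vehicle there were 1, 4, 5 and 0, against 3.57%, 4.21%, 3.01% and 0.0874% of all. Of the kainate receptor partners, 2 of 5 genes were called on average. C1ql3, a secreted protein that binds kainate receptors at mossy fibre synapses, averaged −1.14 and −1.10 at its 2 probe sets after MAM and −0.87 and −0.78 after vehicle, and Neto2, an auxiliary subunit of kainate receptors, averaged −0.94 after MAM and −0.74 after vehicle.

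Of the trafficking genes, all but Lrrtm2 were called on average at a single probe set each, whose values are given. Nedd4 averaged −1.13 after MAM, and Rab11a, a GTPase of recycling endosomes, −0.53 after MAM and −0.39 after vehicle. Lrrtm2, an adhesion protein related to Lrrtm1, averaged −0.47 and −0.50 at its called probe sets after MAM, and the second of these −0.43 after vehicle. Akap5, a scaffold that anchors kinases near AMPA receptors, averaged −0.44, and Lrrtm1 −0.39, both after MAM. Arc, which promotes AMPA receptor endocytosis, averaged 0.48 higher after vehicle. At single times after MAM, Nedd4 and Akap5 were called at 6, 24 and 48 hr, each at the same probe set throughout. Lrrtm2 was called at the first of its probe sets above at 6 and 24 hr and at the second at 48 hr. No Lrrtm2 probe set was thus called at all of these times. Lrrtm1 was called at 6 hr, Rab11a at 48 hr and Myo5b, a motor of recycling endosomes, at 168 hr (0.43 higher). After vehicle, Akap5 was called at 6 and 24 hr (−0.41 and −0.51). Lrrtm1 was called at 48 hr after vehicle (−0.40), at a different probe set from that called after MAM.

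Among AMPA receptor partners, Cacng2, the gene of stargazin, was 0.41 higher at 24 hr after MAM, and Cacng8, another of the same family, 0.50 higher at 24 hr after vehicle. Adarb1, which encodes the enzyme that edits the GluA2 transcript, was 0.43 and 0.48 higher at 6 and 48 hr after MAM, each at a different 1 of its probe sets. Adarb2, a related gene of the same list, was 0.48 and 0.54 higher in Mgmt-/- brain at 48 hr after vehicle, at 2 probe sets.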

How the data were processed

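Total RNA from half-brains was hybridised to 94 Affymetrix arrays. The authors deposited log2 expression values made with RMA in the affy package (versions not given in the sources used here). RMA corrects background, sets all arrays to 1 distribution and summarises each probe set, so a change shared by most probe sets would not be seen. The sources differ on how the RNA was extracted. Of the 45101 probe sets, 34958 carry 1 gene symbol in the platform annotation, and 10143 with several or none were named for no gene. Depth does not apply to arrays, and precision is limited by 5 or 6 arrays a group.

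The deposited log2 values were fitted in R 4.3.3 with limma 3.58.1. Files were read with the package data.table (version 1.17.8), and matplotlib 3.10.9 drew the figures. Each time point was fitted alone, with genotype, agent, their interaction and the number set of the animals. Probe sets with a joint F test of the number set interactions at p of 0.15 or less were set aside (the threshold is that of the study's methods, which do not state a joint test), p-values were adjusted by Benjamini-Hochberg over the probe sets kept, and calls needed an adjusted p under 0.05 and a fold above 1.3. A moderated test replaced the ordinary linear model of the methods. A second fit held the 93 arrays with 16 group means and the number set. A change of 1 probe set relative to the probe set of the same gene with the highest mean was tested by exact permutation within number sets. The scripts were tested on simulated data.

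The receptor genes, the partner gene lists and the marker lists were chosen with earlier results of these data known. All receptor probe sets are reported. Lowest, median and highest values are given for those called, and partner genes are named where called. A value given for a partner gene is that of its called probe set, and its uncalled probe sets, where it has any, are not described. For each probe set called in Mgmt-/- brain after MAM at a single time, the 5 probe sets of other genes with the highest r were named. Alternatives covered the normalisation, the filters, the test, the thresholds, the RNA index, array weights, the liver RNA array, each number set alone and each array left out.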

Additional observations from a re-analysis of the deposited data

Results flagged for a closer look

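In 9 of 144 groups of arrays (6.25%, over 9 probe sets called), 1 array stood farther from the rest than Dixon's 95% limit; chance gives about 1 in 20. MGMT.MAM.48.337 was lowest for Grik2 1425790_a_at (5.31, next 5.84, gap 0.795 of the group's range) and Gria4 1440891_at (7.54, next 8.16, gap 0.658). MGMT.VEH.24.909 was lowest for Gria4 1440891_at (7.43, next 8.34, gap 0.837) and Grik3 1440177_at (6.93, next 7.65, gap 0.775). WT.VEH.48.113 was highest for Gria4 1421351_at (7.75, next 6.91, gap 0.764) and lowest for Gria2 1434146_at (10.60, next 10.87, gap 0.715). Single values stood out for Gria2 1453098_at in WT.MAM.48.741 (7.69, next 7.34, gap 0.879), Grik3 1440177_at in WT.MAM.6.727 (8.66, next 8.10, gap 0.702) and Grik5 1418784_at in WT.MAM.24.133 (9.76, next 8.66, gap 0.797).

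The MAM effect differed between Mgmt-/- and wt brain by −0.52 for Grik2 1425790_a_at at 6 hr, and, averaged over the 4 times, by −0.43 for Gria3 1420563_at and −0.53 for Gria4 1421351_at. All 3 were called by limma's interaction contrast, and none was called with the RNA index as a covariate. At 6 hr the Mgmt-/- MAM and Mgmt-/- vehicle arrays did not overlap on the index, so that fit cannot fully separate MAM from it.

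On array MGMT.MAM.168.343, which was left out of the comparisons, the mean over 11 liver genes was 6.58 higher on the log2 scale than on any other array.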

How the results depend on the processing

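No result reversed under any alternative. Of the 33 named results of single probe sets, all kept their call among brighter probe sets only, 27 with cyclic loess, 31 with the liver RNA array included, 24 in number set 2 alone, 16 with the RNA index as a covariate and 14 in number set 1 alone; of the 18 at single times, 17 kept it without the filter on number sets, 17 with array weights, 16 with an ordinary linear model and 9 with a filter on each interaction.

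Receptor probe sets lowered by MAM in Mgmt-/- brain at any time numbered 2, but 1 with a filter on each interaction and 0 with the RNA index, and the average over the times gave 2, but 5 without the fold limit, 0 with the RNA index and 0 in number set 2 alone. For wt brain, number set 2 alone gave 1, Gria1 1448972_at at 24 hr (−0.61). The genotype difference in the MAM effect gave 1 at single times, but 0 with the RNA index and 0 in either number set alone, and 2 on average, but 4 without the fold limit, 0 with the RNA index and 0 in number set 2. The genotype difference after vehicle gave 5 at single times, but 3 with an ordinary linear model, 8 with the RNA index, 2 in the set of 45 arrays (number set 1) and 12 in number set 2, and 5 on average, but 13 without the fold limit and 3 in either number set alone. After MAM it gave 6 at single times, but 3 in number set 1 alone and 10 in set 2, and 6 on average, but 14 without the fold limit. Differences among times gave 0, but 3 in Mgmt-/- vehicle, 3 in wt MAM and 3 in wt vehicle brain in number set 2 alone. Tests of 1 probe set against another of its gene gave 0, but 7 of 64 with the mean of all others as partner, of which 3 were negative. The causes were not tested.

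Leaving out 1 array at a time gave 1 to 3 receptor probe sets for MAM in Mgmt-/- brain, 0 to 0 in wt brain, 0 to 2 for the genotype difference in the MAM effect, 4 to 5 for genotype after vehicle and 5 to 8 after MAM. On average over the times it gave 2 to 2, 0 to 0, 2 to 2, 5 to 5 and 5 to 6, and among times 0 to 0 except 0 to 1 in wt MAM brain (1 without WT.MAM.24.133). The average of Gria2 1453098_at after MAM was under the fold limit (−0.38 to −0.36) when 1 of these arrays was left out: WT.MAM.6.127, WT.MAM.24.131, WT.MAM.24.133, WT.MAM.48.137, WT.MAM.48.139, WT.MAM.48.141, MGMT.MAM.24.331, MGMT.MAM.24.333, MGMT.MAM.48.337, MGMT.MAM.168.345, WT.MAM.6.725, WT.MAM.6.729, WT.MAM.48.741, WT.MAM.168.743, WT.MAM.168.745, MGMT.MAM.6.953, MGMT.MAM.48.961, MGMT.MAM.168.969 or MGMT.MAM.168.971. Over all probe sets, MAM in Mgmt-/- brain called 656 at any time, but 220 with the RNA index.

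No paired analysis was possible because each animal number belongs to 1 mouse and is not shared between groups.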

Other observations

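Among receptor probe sets, Gria4 1421351_at and Grik2 1425790_a_at followed each other most closely over the 93 arrays (r = 0.863 after the mean of each time and number set was removed), then Gria4 1440891_at and Grik3 1440177_at (r = 0.856), Gria3 1434728_at and Grik3 1440177_at (r = 0.824) and Grik1 1427676_a_at and Grik3 1440177_at (r = 0.812). The probe sets of Grik1 ran in opposite directions (r = −0.378), and so did those of Grik3 (r = −0.493). With the mean of each group and number set removed, r was −0.227 for Grik1 and −0.355 for Grik3. One probe set of each pair, 1439987_at and 1427709_at, did not read above the liver RNA array on all arrays (3.66 to 4.72, against 4.12, and 5.16 to 6.09, against 5.83). The arrays share group and laboratory, and no test was made.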
